A study of Mus musculus with 6 samples.

Results

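The 36 genes described here encode the cytosolic and mitochondrial aminoacyl-tRNA synthetases. They were taken by symbol from the FPKM table, in which they are listed under their older names. The rule for taking them used no measured value, but the list was chosen with earlier results of these data known. All 36 symbols were found among the 22611 genes of the table, 20 of them cytosolic enzymes and 16 mitochondrial enzymes whose symbols end in 2. All 36 passed the filter on low values (a mean above 1 FPKM, a level corrected for transcript length and library size), which left 10596 genes for testing. Each of 6 libraries held epithelial RNA of 1 mouse duodenum, 3 from WT mice and 3 from their *Esrra*-/- littermates, labelled ESRRAKO. *Esrra* encodes the orphan nuclear receptor ESRRα, and the null allele is carried in every tissue of these mice, so effects within the epithelium and effects from elsewhere cannot be told apart. Both genotypes had been fed a high-fat diet. The epithelium was released from the duodenum with EDTA, and its cell types were not separated.

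A tRNA synthetase joins an amino acid to its matching tRNA, the step that sets the reading of the genetic code. Most amino acids have separate cytosolic and mitochondrial enzymes, both encoded in the nucleus, and the mitochondrial enzyme serves the translation of the few proteins made from mitochondrial DNA. Gars and Kars are exceptions, since each gene supplies both compartments. Several cytosolic synthetases are bound together with the scaffold proteins Aimp1, Aimp2 and Eef1e1 in the multisynthetase complex. Many cytosolic synthetase genes are also known targets of Atf4, the transcription factor of the amino acid response. ESRRα is best known for driving genes of mitochondrial oxidative metabolism together with PGC-1 coactivators, hence the question of whether mitochondrial and cytosolic synthetases differed in its absence.

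The targeted gene was checked first. *Esrra* stood at 49.4, 73.5 and 104 FPKM in the WT libraries and at 10.4, 9.42 and 8.72 FPKM in the *Esrra*-/- libraries, each in the order of replicates 1 to 3 kept throughout, a log2 fold change of −2.92 (SE 0.26, limma adjusted p = 0.0215). Here and throughout, a log2 fold change is *Esrra*-/- over WT on log2(FPKM + 0.1), a scale that understates changes of low genes, and adjusted p-values are Benjamini-Hochberg values over all 10596 genes. The 4 Y-linked transcripts Ddx3y, Eif2s3y, Kdm5d and Uty summed to 27.3 to 46.7 FPKM in replicates 1 and 2 of both genotypes, but to 0.0487 FPKM in WT replicate 3 and 0.222 FPKM in *Esrra*-/- replicate 3. The third replicates therefore stood apart in both genotypes. All 13 enterocyte markers had a mean above 1 FPKM, Apoa4 being the most abundant at 18100 FPKM. None of 11 mesenchymal and endothelial markers had a mean above 1 FPKM, and 7 of 14 pancreatic acinar markers were listed at 0 in every library (Prss1, Prss2, Cpa1, Cela2a, Cela3b, Pnlip and Amy2a5).

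The cytosolic synthetases were on the whole the more abundant enzymes in both genotypes. Across the 6 libraries the median cytosolic enzyme had a mean of 17.7 FPKM and the median mitochondrial enzyme 5.41 FPKM, beside 10.2 FPKM for the median gene tested. Cytosolic levels ran from 6.83 FPKM for *Lars*, the leucyl enzyme, to 106 FPKM for *Nars*, the asparaginyl enzyme. *Nars* was followed by *Qars*, the glutaminyl enzyme, at 58.6 FPKM and *Rars*, the arginyl enzyme, at 49.6 FPKM. Mitochondrial levels ran from 1.38 FPKM for *Wars2*, the tryptophanyl enzyme, to 17.9 FPKM for *Rars2*, with the exception of *Lars2*, the mitochondrial leucyl enzyme, which stood at 255 FPKM. In WT the mean ratio of the cytosolic enzyme to its mitochondrial partner had a median of 2.85 over 17 pairs, and to 3 significant digits it was above 1 in 14. It was below 1 for *Cars* over *Cars2* (0.858) and *Lars* over *Lars2* (0.027), and *Farsa* and *Fars2* were level (1.0).

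**Figure D1:**
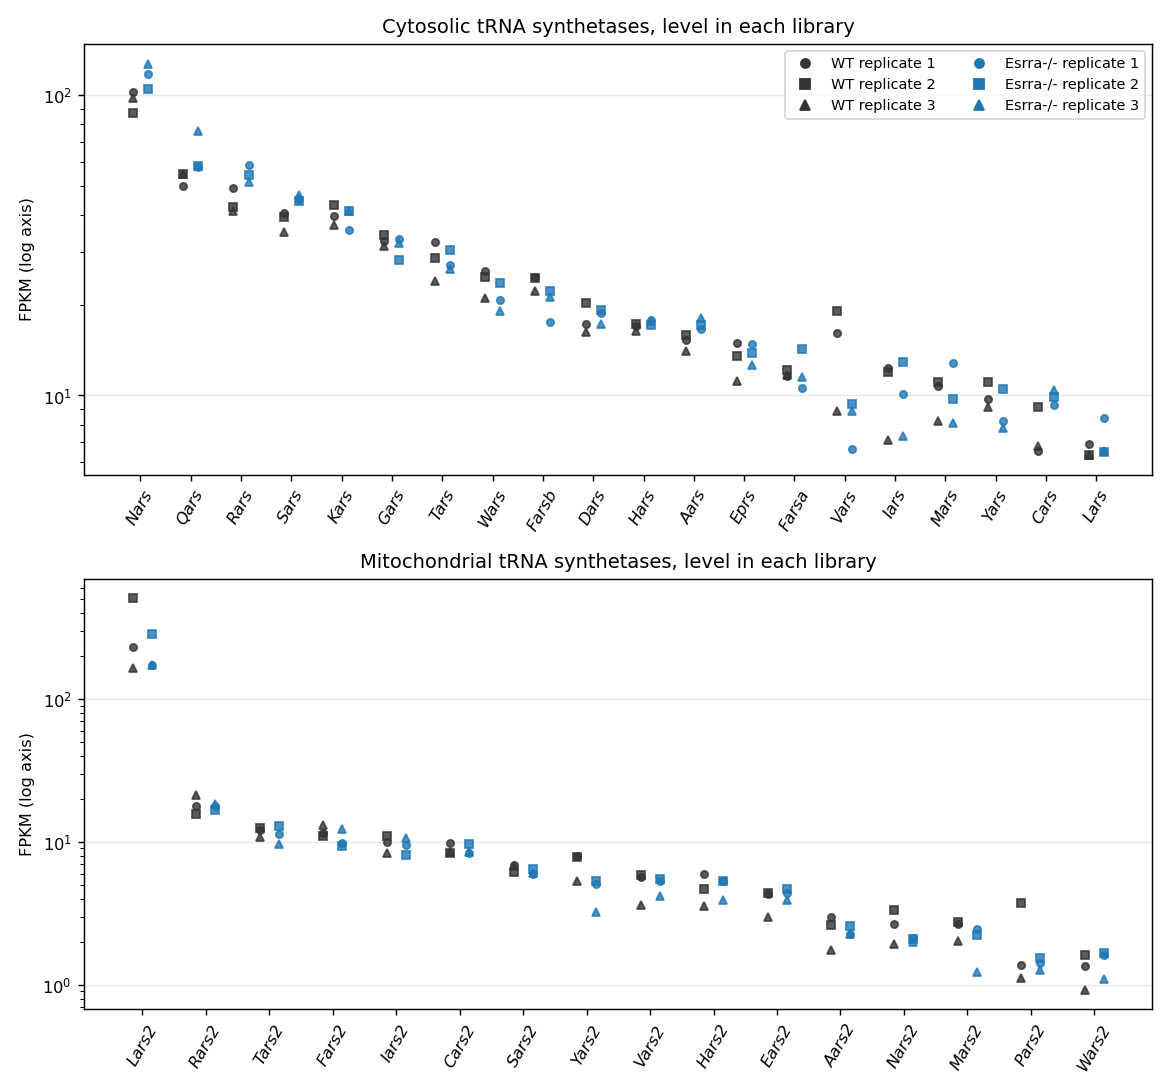
Level of each tRNA synthetase in each library, in FPKM on a log axis, with cytosolic enzymes above and mitochondrial enzymes below, both ordered by mean level. Black symbols are WT and blue symbols *Esrra*-/-, and the circle, square and triangle are replicates 1, 2 and 3. *Lars2*, at 255 FPKM, stands above every other mitochondrial enzyme.

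Few synthetases differed between the genotypes, and their number was near that among all genes. At an unadjusted p under 0.05 in limma, 4 of 36 differed, beside 10.8% of all genes tested: *Cars* and *Rars* were higher in *Esrra*-/- and *Vars* and *Yars2* were lower. *Vars* and *Yars2* also passed the fold threshold (log2 fold change beyond 0.58, about 1.5-fold), which makes 2 members called lower beside 3.28% of all genes tested and 0 called higher beside 1.35% (4.63% in either direction). None of the 36 reached an adjusted p under 0.05, the smallest being 0.417, whereas 0.0378% of all genes did. In these bulk samples, fewer cells of a type and less RNA per cell cannot be told apart. For 23 of the 36 the 95% interval of the log2 fold change lay within 0.58 either way, beside 39.8% of all genes tested. These 23 were 14 of the 20 cytosolic and 9 of the 16 mitochondrial enzymes, so a change of the size of the fold threshold lay outside the interval of most cytosolic enzymes. For the other 13 the interval reached past 0.58 in at least 1 direction.

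**Figure D2:**
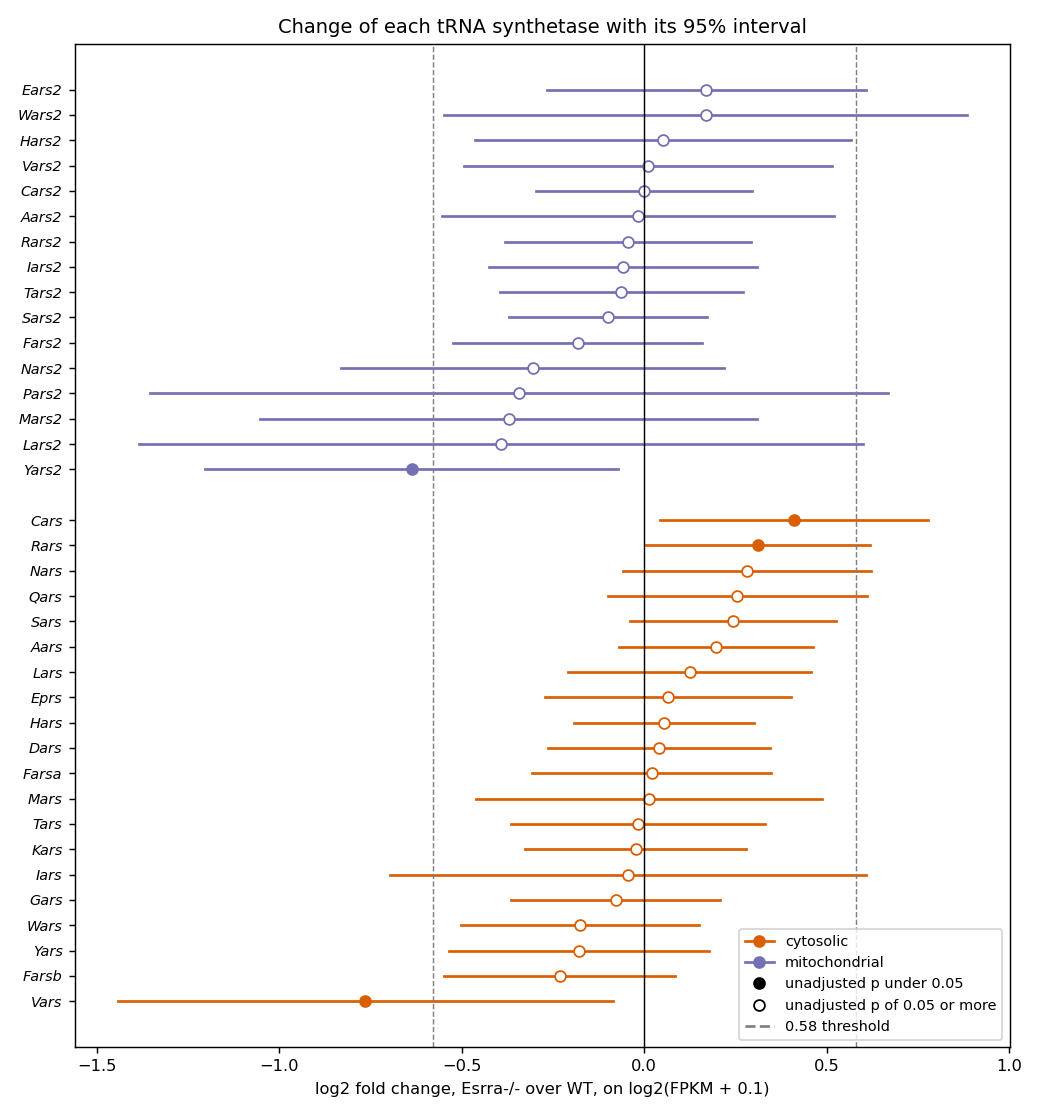
The log2 fold change of each synthetase (*Esrra*-/- over WT, on log2(FPKM + 0.1)) with its 95% interval from limma, mitochondrial enzymes in purple above and cytosolic enzymes in orange below. Filled points mark an unadjusted p under 0.05 (*Vars*, *Yars2*, *Cars* and *Rars*) and dashed lines the fold threshold of 0.58.

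*Vars*, the cytosolic valyl enzyme, had the most negative fold change. Its gene lies on chromosome 17 at 35137932 to 35153267 on the plus strand of NCBIM37, the assembly of mm9. *Vars* was at 16.1, 19.1 and 8.85 FPKM in WT and at 6.64, 9.33 and 8.86 FPKM in *Esrra*-/-, means of 14.7 ± 5.28 and 8.28 ± 1.44 FPKM (SD, n = 3). WT replicates 1 and 2 were above all *Esrra*-/- libraries, but WT replicate 3 was among them and the groups overlapped. The log2 fold change of *Vars* was −0.76 (SE 0.29, limma adjusted p = 0.417). Within replicates 1 and 2 of both genotypes it was −1.15 and between the third replicates 0.00, and the interaction of genotype with Y-linked expression had an unadjusted p under 0.05 but a limma adjusted p of 0.916. This was the 1 member of 36 with an unadjusted interaction p under 0.05 (2.78%), beside 5.29% of all genes tested. *Vars* no longer had an unadjusted p under 0.05 without WT replicate 1 (log2 fold change −0.66, limma adjusted p = 0.609), WT replicate 2 (−0.54, adjusted p = 0.771) or *Esrra*-/- replicate 1 (−0.61, adjusted p = 0.805).

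The exons of *Vars* overlap those of D17H6S56E-5 on the opposite strand by up to 304 bases. D17H6S56E-5 was at 32.3, 39.4 and 29.9 FPKM in WT and at 21.7, 18.2 and 29.3 FPKM in *Esrra*-/-, a log2 fold change of −0.57 (SE 0.20, limma adjusted p = 0.393). As the library kit did not mark strand, reads of the shared bases cannot be told apart. *Vars2*, the mitochondrial valyl enzyme, was at 5.67, 5.82 and 3.63 FPKM in WT and at 5.28, 5.53 and 4.19 FPKM in *Esrra*-/-, a log2 fold change of 0.01 (SE 0.22, limma adjusted p = 0.992). The *Vars* to *Vars2* ratio was 2.84, 3.28 and 2.44 in WT and 1.26, 1.69 and 2.11 in *Esrra*-/-, with no overlap, and this was the only one of the 17 pairs whose ratio was lower in every *Esrra*-/- library.

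*Yars2*, the mitochondrial tyrosyl enzyme, was the only mitochondrial synthetase that passed the test. It lies on chromosome 16 at 16303058 to 16309733 on the plus strand of NCBIM37 and shares no exon with another gene. *Yars2* was at 7.99, 7.88 and 5.31 FPKM in WT and at 5.05, 5.30 and 3.24 FPKM in *Esrra*-/-, means of 7.06 ± 1.52 and 4.53 ± 1.12 FPKM (SD, n = 3). Every *Esrra*-/- library was below every WT library, although *Esrra*-/- replicate 2 and WT replicate 3 nearly met, and the third replicate was the lowest of each genotype. The log2 fold change of *Yars2* was −0.64 (SE 0.24, limma adjusted p = 0.417), with −0.61 within replicates 1 and 2 and −0.69 between the third replicates. With Y-linked expression as a covariate the limma adjusted p of *Yars2* was 0.0623. *Yars2* no longer had an unadjusted p under 0.05 without WT replicate 1 (log2 fold change −0.54, limma adjusted p = 0.612), WT replicate 2 (−0.55, adjusted p = 0.761) or *Esrra*-/- replicate 3 (−0.42, adjusted p = 0.65). *Yars*, the cytosolic tyrosyl enzyme, was at 9.71, 11.1 and 9.15 FPKM in WT and at 8.22, 10.5 and 7.81 FPKM in *Esrra*-/- (log2 fold change −0.18, SE 0.15, limma adjusted p = 0.7), and its groups overlapped.

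*Cars* and *Rars* rose by less than the fold threshold. *Cars*, the cytosolic cysteinyl enzyme on chromosome 7 (150743135 to 150785995, minus strand), was at 6.54, 9.14 and 6.77 FPKM in WT and at 9.31, 9.85 and 10.5 FPKM in *Esrra*-/-. All *Esrra*-/- libraries were above all WT libraries, WT replicate 2 lying just under them. The exons of *Cars* overlap those of Gm15580 on the opposite strand by up to 211 bases, whose reads cannot be told apart. The means were 7.48 ± 1.44 and 9.87 ± 0.58 FPKM (SD, n = 3) and the log2 fold change of *Cars* was 0.41 (SE 0.16, limma adjusted p = 0.419). *Cars* kept an unadjusted p under 0.05 without WT replicate 2 (log2 fold change 0.56) and in none of the fits that left out another library (0.32 to 0.45). Its mitochondrial partner *Cars2* was at 9.77, 8.29 and 8.43 FPKM in WT and at 8.32, 9.65 and 8.48 FPKM in *Esrra*-/-, with a log2 fold change of 0.00 (SE 0.13, limma adjusted p = 0.999).

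*Rars*, a cytosolic enzyme of the multisynthetase complex, lies on chromosome 11 (35621883 to 35648008, minus strand). *Rars* was at 49.0, 42.6 and 41.3 FPKM in WT and at 58.8, 54.4 and 51.5 FPKM in *Esrra*-/-, means of 44.3 ± 4.13 and 54.9 ± 3.66 FPKM (SD, n = 3). The groups did not overlap, and the log2 fold change was 0.31 (SE 0.13, limma adjusted p = 0.458). *Rars* kept an unadjusted p under 0.05 without WT replicate 1 (log2 fold change 0.39) or *Esrra*-/- replicate 3 (0.36), but not without WT replicate 2 (0.28), WT replicate 3 (0.26), *Esrra*-/- replicate 1 (0.26) or *Esrra*-/- replicate 2 (0.32). *Rars2* was at 18.0, 15.6 and 21.3 FPKM in WT and at 17.8, 16.7 and 18.3 FPKM in *Esrra*-/-, inside the WT range in every library (log2 fold change −0.04, SE 0.14, limma adjusted p = 0.93).

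**Figure D3:**
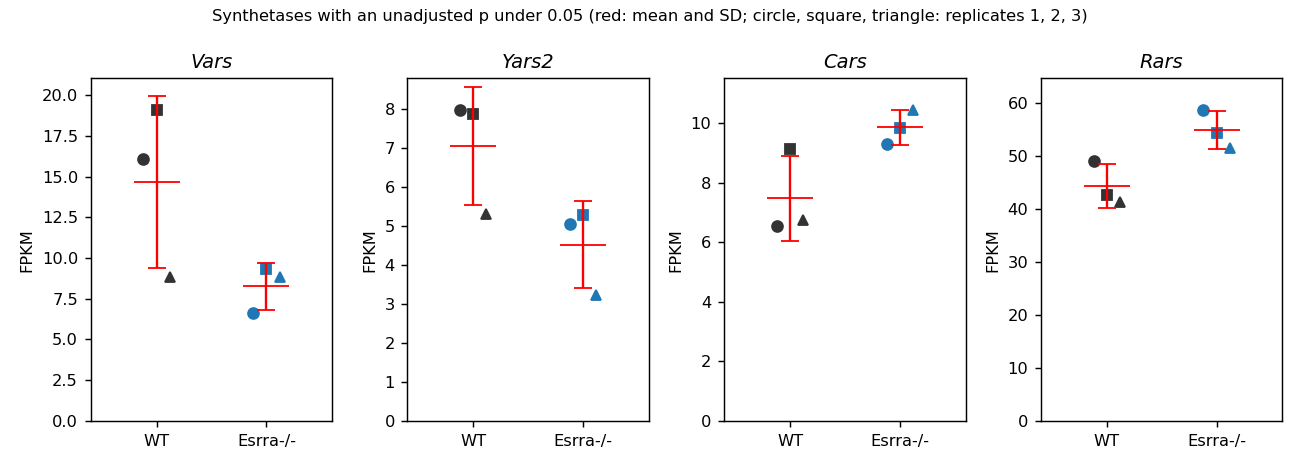
FPKM of *Vars*, *Yars2*, *Cars* and *Rars* in each library, with WT in black and *Esrra*-/- in blue, replicates 1, 2 and 3 as circle, square and triangle, and the mean and SD (n = 3) in red. WT replicate 3 of *Vars*, at 8.85 FPKM, lies within the *Esrra*-/- range, while the groups of *Yars2*, *Cars* and *Rars* do not overlap.

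None of the other cytosolic enzymes passed the test. The median log2 fold change of the 20 cytosolic enzymes was 0.03 (range −0.76 to 0.41), equal to the median of 0.03 over all genes tested, with 12 positive and 8 negative, beside 54.3% of all genes tested that were positive. For 6 of 20 (*Aars*, *Cars*, *Nars*, *Qars*, *Rars* and *Sars*) every *Esrra*-/- library was above every WT library, as it was for 8.45% of all genes tested, and for 0 of 20 it was the reverse, beside 9.14%. *Nars* was at 103, 87.2 and 98.2 FPKM in WT and at 117, 105 and 128 FPKM in *Esrra*-/- (log2 fold change 0.28, SE 0.14, limma adjusted p = 0.533). *Sars*, *Qars* and *Aars*, the seryl, glutaminyl and alanyl enzymes, had log2 fold changes of 0.24, 0.26 and 0.20 with limma adjusted p-values of 0.524, 0.582 and 0.572. For *Qars*, *Esrra*-/- replicate 3 was at 76.0 FPKM beside 57.6 and 58.3 FPKM in replicates 1 and 2, and without it the log2 fold change was 0.13.

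On the lower side, *Farsb*, the beta subunit of the cytosolic phenylalanyl enzyme, was at 24.9, 24.5 and 22.2 FPKM in WT and at 17.6, 22.3 and 21.4 FPKM in *Esrra*-/- (log2 fold change −0.23, SE 0.14, limma adjusted p = 0.574). Its groups overlapped at *Esrra*-/- replicate 2, and *Farsa*, the alpha subunit of the same enzyme, had a log2 fold change of 0.02. The mitochondrial phenylalanyl enzyme *Fars2* was at 11.6, 11.0 and 13.1 FPKM in WT and at 9.78, 9.42 and 12.3 FPKM in *Esrra*-/- (log2 fold change −0.18, SE 0.15, limma adjusted p = 0.684). The 8 cytosolic enzymes of the multisynthetase complex had a median log2 fold change of 0.05 and the other 12 a median of 0.00. *Gars* and *Kars*, which serve both compartments, had log2 fold changes of −0.08 and −0.02, and *Wars*, *Tars* and *Dars*, the tryptophanyl, threonyl and aspartyl enzymes, had −0.18, −0.02 and 0.04.

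Apart from *Yars2*, none of the mitochondrial enzymes passed the test. Their median log2 fold change was −0.06 (range −0.64 to 0.17), with 12 of 16 negative, whereas 45.7% of all genes tested were negative. Only for *Yars2* was every *Esrra*-/- library below every WT library, beside 9.14% of all genes tested, and for 0 of 16 was it the reverse. *Mars2*, the mitochondrial methionyl enzyme, was at 2.67, 2.76 and 2.04 FPKM in WT and at 2.44, 2.23 and 1.22 FPKM in *Esrra*-/- (log2 fold change −0.37, SE 0.29, limma adjusted p = 0.676). Only *Esrra*-/- replicate 3 fell below the WT range. *Nars2*, the asparaginyl enzyme of mitochondria, was at 2.65, 3.31 and 1.94 FPKM in WT and at 2.12, 2.08 and 1.99 FPKM in *Esrra*-/- (log2 fold change −0.31, SE 0.22, limma adjusted p = 0.648), all within the WT range.

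The most positive values among mitochondrial enzymes were those of *Ears2*, *Wars2* and *Hars2*. *Ears2*, the mitochondrial glutamyl enzyme, was at 4.29, 4.38 and 2.95 FPKM in WT and at 4.35, 4.64 and 3.95 FPKM in *Esrra*-/- (log2 fold change 0.17, SE 0.19, limma adjusted p = 0.765). *Wars2* was at 1.35, 1.62 and 0.920 FPKM in WT and at 1.61, 1.67 and 1.09 FPKM in *Esrra*-/- (log2 fold change 0.17, SE 0.31, limma adjusted p = 0.868). *Hars2*, the mitochondrial histidyl enzyme, was at 5.99, 4.65 and 3.58 FPKM in WT and at 5.32, 5.31 and 3.94 FPKM in *Esrra*-/- (log2 fold change 0.05, SE 0.22, limma adjusted p = 0.949). In these 3 genes the groups overlapped and the third replicate was the lowest of each genotype.

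Their cytosolic partners were also close between genotypes. *Eprs*, which carries both the glutamyl and the prolyl activity, was at 14.9, 13.6 and 11.2 FPKM in WT and at 14.8, 13.9 and 12.7 FPKM in *Esrra*-/- (log2 fold change 0.07, SE 0.14, limma adjusted p = 0.896). *Wars* was at 25.9, 24.9 and 21.2 FPKM in WT and at 20.9, 23.7 and 19.1 FPKM in *Esrra*-/- (log2 fold change −0.18, SE 0.14, limma adjusted p = 0.682), and *Hars* at 17.1, 17.4 and 16.4 FPKM in WT and at 17.9, 17.1 and 17.8 FPKM in *Esrra*-/- (log2 fold change 0.05, SE 0.11, limma adjusted p = 0.876). *Hars* was among the steadiest of the group, with SDs of 0.521 FPKM in WT and 0.401 FPKM in *Esrra*-/-. *Mars* was at 10.7, 11.1 and 8.20 FPKM in WT and at 12.8, 9.73 and 8.08 FPKM in *Esrra*-/- (log2 fold change 0.01, SE 0.20, limma adjusted p = 0.987).

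Among the remaining mitochondrial enzymes, *Pars2*, the prolyl enzyme, had a log2 fold change of −0.34. WT replicate 2 was at 3.74 FPKM and the other 5 libraries at 1.11 to 1.53 FPKM, and without WT replicate 2 the log2 fold change was 0.16. *Sars2*, *Tars2*, *Iars2* and *Aars2*, the seryl, threonyl, isoleucyl and alanyl enzymes of mitochondria, lay between −0.10 and −0.02, and their limma adjusted p-values between 0.783 and 0.984. The exons of *Iars2* overlap those of Rab3gap2 on the opposite strand by up to 2018 bases and those of *Hars* and *Hars2* overlap each other by up to 195 bases, so reads of these stretches cannot be told apart. *Farsb*, *Nars2*, *Ears2*, *Yars*, *Aars* and *Mars* likewise share exon bases with another gene, up to 68 in *Mars* and up to 284 in *Nars2*.

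*Lars2* stood out for its level. It was at 231, 508 and 164 FPKM in WT and at 172, 286 and 172 FPKM in *Esrra*-/-, with WT replicate 2 at the top and the other libraries overlapping (log2 fold change −0.39, SE 0.42, limma adjusted p = 0.762). Its cytosolic partner *Lars* was at 6.88, 6.32 and 6.32 FPKM in WT and at 8.42, 6.50 and 6.54 FPKM in *Esrra*-/- (log2 fold change 0.12, SE 0.14, limma adjusted p = 0.776). *Lars2* lies on chromosome 9 at 123276058 to 123371782 of NCBIM37. Its longest annotated transcript has 3881 bases, with the coding part at 187 to 2895. When this transcript was matched to the whole genome at 95% identity or more over at least 75 bases, the stretch from 3009 to 3406, 398 bases of the 3′ UTR and 10.3% of the transcript, was found at 8 other places on 7 chromosomes. No base of the coding part was found elsewhere.

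AA474408, a gene on chromosome 7 (117201501 to 117204839, minus strand) that was singled out after its values were seen, moved with *Lars2* from library to library. AA474408 was at 86.8, 185 and 59.0 FPKM in WT and at 62.7, 107 and 66.9 FPKM in *Esrra*-/-, and the ratio of *Lars2* to AA474408 was 2.57 to 2.77 in all 6 libraries. The 2 transcripts shared an alignment of 196 bases at 80.1% identity, at bases 3150 to 3336 of *Lars2*. Whether the *Lars2* level is that of the *Lars2* mRNA was not tested. Without *Lars2*, the summed level of the mitochondrial enzymes was 103, 101 and 91.9 FPKM in WT and 92.7, 94.1 and 88.6 FPKM in *Esrra*-/-, and their median log2 fold change remained at −0.06.

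**Figure D4:**
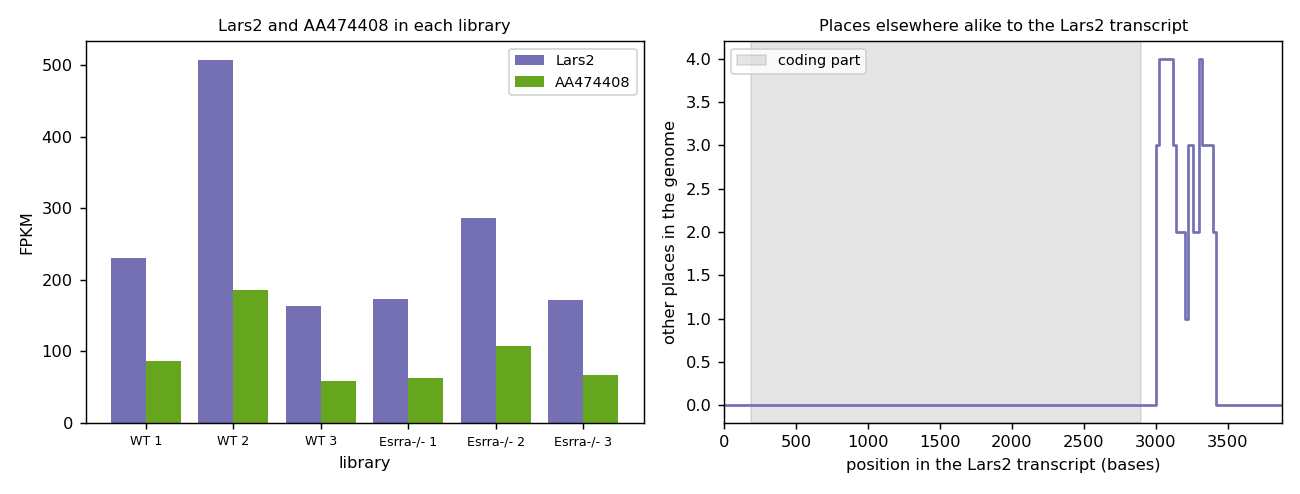
Left, FPKM of *Lars2* (purple) and AA474408 (green) in each library, both highest in WT replicate 2, at 508 and 185 FPKM. Right, the number of other places in the genome that match the *Lars2* transcript at 95% identity or more, along the transcript in bases, with the coding part in grey. Matches lie only between bases 3009 and 3406.

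The only other member with a large match elsewhere was *Iars*, the cytosolic isoleucyl enzyme. Of its transcript, 61.3% was found at 3 places outside the gene, all on 1 chromosome. *Iars* was at 12.3, 11.98 and 7.11 FPKM in WT and at 10.1, 13.0 and 7.30 FPKM in *Esrra*-/-, low in the third replicate of both genotypes (log2 fold change −0.04). Its value is uncertain where such copies share reads. *Farsa* and *Wars2* had matches over 5.5% and 3.2% of their transcripts, outside the coding part, and the other 32 synthetases had none.

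The mitochondrial median log2 fold change was 0.09 below the cytosolic one. Per library, the median deviation of the mitochondrial enzymes from their means less that of the cytosolic enzymes was 0.08, 0.11 and −0.09 in WT and −0.08, 0.01 and −0.17 in *Esrra*-/- (log2). Over all libraries the genotypes overlapped, since the third replicate was the lowest of each. Within replicates 1 and 2 both *Esrra*-/- libraries (−0.08 and 0.01) were below both WT libraries (0.08 and 0.11), and between the third replicates *Esrra*-/- (−0.17) was also below WT (−0.09). No test was made of this difference. Over the 17 pairs, the mean log2 ratio of cytosolic to mitochondrial enzyme was higher in *Esrra*-/- in 13 and lower in 4, with a median shift of 0.21. The 13 include *Hars* over *Hars2*, with a shift of 0.0039 and mean ratios of 3.72 in WT and 3.70 in *Esrra*-/-. *Eprs* and *Fars2* each enter 2 pairs, so the pairs are not all separate. The ratio did not overlap between genotypes in 4 of 17 pairs, a share near the 17.6% of all single genes tested whose groups did not overlap in either direction: *Mars* over *Mars2* (4.03 ± 0.00599 in WT and 5.41 ± 1.14 in *Esrra*-/-, SD, n = 3), *Rars* over *Rars2* (2.47 ± 0.456 and 3.13 ± 0.271) and *Sars* over *Sars2* (5.82 ± 0.590 and 7.37 ± 0.470) were higher, and *Vars* over *Vars2* was lower.

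The third replicates of both genotypes had low levels of many synthetases. WT replicate 3 was the lowest WT library in 27 of the 36 synthetases (75%), beside 36.8% of all genes tested, and *Esrra*-/- replicate 3 was the lowest of its genotype in 18 (50%), beside 34.2%. In 18 synthetases (50%) both held, beside 20.9% of all genes tested. The mitochondrial enzymes had a median deviation of −0.22 in both of the third replicates and of −0.04 to 0.17 in the other 4 libraries, and the cytosolic enzymes −0.13 and −0.05 beside 0.01 to 0.06. These were also the libraries with Y-linked transcripts near 0, but with 1 such mouse per genotype, sex and any other property of these mice cannot be told apart.

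**Figure D5:**
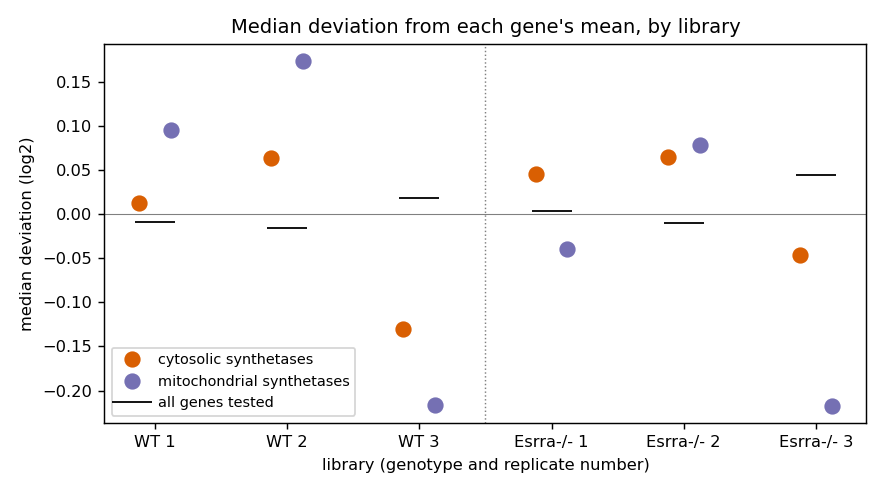
Median deviation of the cytosolic (orange) and mitochondrial (purple) synthetases from each gene's mean over the 6 libraries, in log2 units, by library, with the median over all genes tested as a black bar. In WT replicate 3 and *Esrra*-/- replicate 3 the mitochondrial enzymes are at −0.22, and the genotypes overlap.

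Cell type markers varied over the same libraries. The 6 Paneth markers, all with means above 1 FPKM, summed to 9620 to 19700 FPKM in WT and to 1830 to 8110 FPKM in *Esrra*-/- (median log2 fold change −1.49), and the 10 markers of crypt stem and dividing cells, all with means above 1 FPKM, to 239 to 362 and 120 to 274 FPKM (median −0.66). In the crypt list the third replicate was the lowest of each genotype, at 239 and 120 FPKM, as it was in the Paneth list (9620 and 1830 FPKM). The 13 enterocyte markers summed to 41400 to 66600 FPKM in WT and to 51100 to 70300 FPKM in *Esrra*-/-, the 6 goblet markers to 2860 to 3380 and 2960 to 3370 FPKM, and the 12 immune markers, 9 of them above 1 FPKM, to 119 to 211 and 104 to 246 FPKM. The third replicate was the lowest of each genotype for the goblet markers too (2860 and 2960 FPKM) and the highest of each for the enterocyte markers (66600 and 70300 FPKM). The pancreatic acinar markers, 3 of 14 above 1 FPKM, summed to 19.0 to 36.8 and 15.9 to 28.3 FPKM, and the mesenchymal and endothelial markers to 0.562 to 1.42 and 0.871 to 4.30 FPKM. The part of cell composition in the synthetase values was not tested.

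The start regions of the genes were searched for binding motifs. In the RefSeq promoters (build GRCm38.p6, from 250 bases before to 50 after each start), 13 cytosolic and 14 mitochondrial synthetases were found. *Cars*, *Hars*, *Lars*, *Nars*, *Rars*, *Vars*, *Wars*, *Hars2* and *Pars2* were not matched. On either strand, the 9-base ESRR site TCAAGGTCA was in 0 of 13 and 0 of 14, beside 0.47% of all 27025 genes with a promoter in the table. Its core AAGGTCA, which lies within the longer site, was also in 0 of 13 and 0 of 14, beside 5.38%. The letters TGATGNAA, the composite element bound by Atf4 and searched for after the levels had been seen, were in a promoter of 5 of the 13 cytosolic genes (*Aars*, *Gars*, *Iars*, *Tars* and *Yars*), of 0 of the 14 mitochondrial genes and of 4.51% of all genes with a promoter. These matches are of letters only. The element and its surroundings are shown for the 3 genes in which it lies before the start, from 5′ to 3′ on the strand of the gene with the element in capitals, which reads on the opposite strand in all 3. They lie at chr8:111033705-111033762 for *Aars*, chr6:55037946-55038000 for *Gars* and chr15:11399659-11399698 for *Tars*, with *Tars* on the minus strand.
Aars: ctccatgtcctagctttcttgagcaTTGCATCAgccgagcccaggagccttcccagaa
Gars: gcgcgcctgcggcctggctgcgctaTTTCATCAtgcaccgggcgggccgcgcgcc
Tars: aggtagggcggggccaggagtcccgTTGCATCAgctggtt

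Of the 5 genes with the element, none passed the test, with log2 fold changes of 0.20 for *Aars*, −0.08 for *Gars*, −0.04 for *Iars*, −0.02 for *Tars* and −0.18 for *Yars*. Of a list of 27 Atf4 targets that are not synthetases, which does not hold every known target, 21 were tested, with a median log2 fold change of −0.16. Of these, 3 were lower at an unadjusted p under 0.05, beside 6.49% of all genes tested, and 0 were higher, beside 4.3%. These were Slc1a5, a glutamine transporter (−0.62, limma adjusted p = 0.444), and Shmt2 and Mthfd2, enzymes of mitochondrial one-carbon metabolism (−0.57, limma adjusted p = 0.444, and −0.36, limma adjusted p = 0.393). Each lost its unadjusted p under 0.05 without WT replicate 2 (−0.50 for Slc1a5, −0.38 for Shmt2 and −0.31 for Mthfd2) or *Esrra*-/- replicate 3 (−0.41, −0.38 and −0.35). Slc1a5 and Mthfd2 also lost it without WT replicate 1 (−0.50 and −0.37) or *Esrra*-/- replicate 1 (−0.69 and −0.33), and Shmt2 without *Esrra*-/- replicate 2 (−0.60). Atf4 itself was at 123, 103 and 139 FPKM in WT and at 128, 142 and 167 FPKM in *Esrra*-/- (log2 fold change 0.26), with overlapping groups.

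Several other genes of mitochondrial translation were lower. Of the 12 mitochondrial translation factors, all tested, 11 had negative values (median −0.20), beside 45.7% of all genes tested. At an unadjusted p under 0.05, 4 were lower and 0 higher, beside 6.49% and 4.3% of all genes tested. Guf1, a GTPase of the mitochondrial ribosome, was at 5.42, 5.58 and 4.42 FPKM in WT and at 4.03, 2.92 and 2.59 FPKM in *Esrra*-/- (log2 fold change −0.69, limma adjusted p = 0.328). The elongation factor Tsfm (−0.57, limma adjusted p = 0.344), the release factor Mtrf1l (−0.54, limma adjusted p = 0.444) and the elongation factor Gfm1 (−0.39, limma adjusted p = 0.393) were the other 3, and in all 4 genes the groups did not overlap. With Tufm, another elongation factor (−0.25, limma adjusted p = 0.515), the groups of 5 of the 12 did not overlap, all lower, beside 9.14% of all genes tested. Guf1 and Tsfm kept an unadjusted p under 0.05 with any library left out. Mtrf1l lost it without WT replicate 1 (−0.47), WT replicate 2 (−0.50), *Esrra*-/- replicate 2 (−0.55) or *Esrra*-/- replicate 3 (−0.43), and Gfm1 without WT replicate 1 (−0.35), WT replicate 2 (−0.36), *Esrra*-/- replicate 1 (−0.39) or *Esrra*-/- replicate 3 (−0.31).

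Of 12 genes of synthetase partners and the amidotransferase, 11 were tested, with a median log2 fold change of −0.03, 2 lower at an unadjusted p under 0.05 and 0 higher, beside 6.49% and 4.3% of all genes tested. Qrsl1, a subunit of the amidotransferase that completes glutaminyl-tRNA in mitochondria, was at 4.30, 5.14 and 5.50 FPKM in WT and at 3.63, 3.77 and 2.95 FPKM in *Esrra*-/-, with no overlap (log2 fold change −0.52, limma adjusted p = 0.36). Dtd1, a deacylase that removes D-amino acids from tRNA, was at 2.74, 2.60 and 2.65 FPKM in WT and at 1.49, 2.42 and 1.66 FPKM in *Esrra*-/- (log2 fold change −0.53, limma adjusted p = 0.448). The scaffold genes Aimp1, Aimp2 and Eef1e1 had log2 fold changes of 0.09, 0.05 and −0.25, and none passed the test. The unadjusted p of Qrsl1 stayed under 0.05 with any library left out, whereas that of Dtd1 did so only without *Esrra*-/- replicate 2 and was above 0.05 without each of the other 5 libraries (log2 fold changes of −0.54 to −0.39).

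Of 16 genes that process or modify mitochondrial tRNA, 15 were tested, with a median log2 fold change of −0.16. Of these, 12 were negative, beside 45.7% of all genes tested, and 0 passed an unadjusted p of 0.05, beside 10.8%. The groups of 4 (Gtpbp3, Trmu, Hsd17b10 and Yrdc) did not overlap, all lower, beside 9.14% of all genes tested. The smallest adjusted p-values were those of Hsd17b10, a subunit of mitochondrial RNase P (−0.31, limma adjusted p = 0.471), and, tied at a limma adjusted p of 0.501, Osgepl1 (−0.41, groups overlapping) and Trmu (−0.37, groups not overlapping), both tRNA modification enzymes. Of the 19 cytosolic elongation and initiation factors, all tested, 0 passed, beside 10.8% of all genes tested, and their median was −0.02. A 95% interval within 0.58 either way was found for 18 of 19, beside 39.8% of all genes tested. The smallest adjusted p-values among them belonged to the elongation factor subunits Eef1b2 (−0.26, limma adjusted p = 0.533) and Eef1d (−0.23, limma adjusted p = 0.587). The groups of these 2 of 19 did not overlap, both lower, beside 9.14% of all genes tested.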

How the data were processed

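The authors sequenced paired ends of TruSeq libraries made from duodenal epithelial RNA of 3 WT and 3 *Esrra*-/- mice. Reads were checked with fastQC and quantified with Kallisto against mm9, and the authors derived FPKM values with DESeq2. The annotation was not given in the sources used here. The authors deposited FPKM values per gene and library, and a table of their own comparison (mean counts, fold changes, p-values), which was not used. Depth is not given by FPKM, and no interval from counts was made.

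From the FPKM values, log2(FPKM + 0.1) of the 10596 genes with a mean above 1 FPKM was tested with limma 3.58.1 (R 4.3.3, eBayes with a mean-variance trend, no covariate), with Benjamini-Hochberg adjustment over these genes. Genes past both thresholds of the study (0.05 for the unadjusted p, 0.58 for the log2 fold change) were called. The step was tested on simulated data in which each gene varied independently. Shifts shared by many genes, as in the third replicates, were not simulated. Alternatives changed the pseudocount, filter, scaling, trend, thresholds, replicate block, Y-linked covariate and libraries, and 2 were added after the data had been seen: *Lars2* left out, and the interaction of genotype with Y-linked expression. The genes and lists were chosen with earlier results of these data known. Values by library are given for synthetases at an unadjusted p under 0.05, for the 3 most negative and 3 most positive of each compartment, and for their partners. *Sars*, *Qars*, *Aars*, *Pars2*, *Iars*, D17H6S56E-5 and AA474408 were added after their values were seen. Longest GENCODE M1 transcripts were matched to NCBIM37 with blastn 2.17.0 (E under 1e-10). Promoter sequences came from RefSeq.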

Additional observations from a re-analysis of the deposited data

How the results depend on the processing

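No synthetase had an adjusted p under 0.05 in any of the 15 limma fits. The mitochondrial median was below the cytosolic one in all of them (difference −0.18 to −0.07), but several of these fits could not alter the difference. Dropping the trend or the filter, or adding the replicate block or Y-linked covariate, leaves the fold changes of this balanced design as they were. Median-ratio scaling moves both medians alike. With a pseudocount of 1, *Yars2* fell under the fold threshold (−0.55) and 1 synthetase was called lower instead of 2, beside 2.37% of all genes. With an adjusted p under 0.05 as the rule, 0 were called. With a fold threshold of 0.3, *Cars* and *Rars* made 2 called higher, beside 4.06% of all genes. At an unadjusted p under 0.05, the number higher was 1 without a trend, with median-ratio scaling and with quantile normalization (*Cars* in each, beside 3.8%, 3.97% and 5.12% of all genes), and 4 with Y-linked transcripts as a covariate (*Cars*, *Nars*, *Rars* and *Sars*), a fit in which 8.43% of all genes were higher and 18.6% had an unadjusted p under 0.05 in either direction. The cause of these shifts was not tested. With each library left out in turn, 0 to 2 were called lower, 0 to 3 were lower and 0 to 1 higher at an unadjusted p under 0.05 (all genes 2.38% to 5.05%, 3.92% to 7.42% and 2.58% to 4.92%), and the medians ran from −0.04 to 0.11 for cytosolic and from −0.15 to 0.01 for mitochondrial enzymes. None were lower without WT replicate 1 or WT replicate 2, and none higher without WT replicate 3, *Esrra*-/- replicate 1 or *Esrra*-/- replicate 2. Each such fit has 1 library fewer. The cytosolic median was below 0 only without WT replicate 3 and the mitochondrial above 0 only without WT replicate 2, which also turned *Lars2* to 0.07. In all, 18 members changed sign in at least 1 alternative, none of them with an unadjusted p under 0.05. Without *Gars* and *Kars* the cytosolic median was 0.05. The adjusted p of *Esrra* ran from 0.0212 to 0.185. With the replicate number as a block, 5 synthetases had an unadjusted p under 0.05 (the 4 and *Nars*), as did 21.6% of all genes, and *Vars* and *Yars2* were again called. Deviations of same-numbered libraries correlated at 0.012, 0.263 and 0.376, and WT replicate 1 correlated more with *Esrra*-/- replicate 2 (0.182) than with its own number, so the numbers were not taken to pair the mice. FPKM give no depth, so the precision of low enzymes such as *Wars2* is known only from the spread of 3 mice per genotype.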
